A study of Mus musculus with 13 samples.

Results

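The cells described here are tumor myeloid cells with transcripts of Arg1 or Inhba, which earlier results of these data had named inflammatory tumor macrophages. They were selected from droplet-based scRNA-seq of 10 colon tumors and 3 samples of adjacent mucosa from 3 mice. The mice were C57BL/6J of the genotype ApcMin/+; p16cis/cis, that is, heterozygous for the Min mutation of Apc and homozygous for an allele that brings methylation to the p16 promoter, and all had been kept on a diet supplemented with folic acid, vitamin B12, choline and betaine. Mouse A (24 weeks old) gave tumors 5 to 8 and mucosa 2, mouse B (23 weeks) tumors 9 and 10 and mucosa 3, and mouse C (20 weeks) tumors 1 to 4 and mucosa 1. There was no library from an unsupplemented or p16 wild-type mouse among these 13, and the mouse and its age cannot be told apart. Tumors of 1 mouse are not independent animals. Tests over tumors took the tumor and not the mouse as the sample, so their p-values do not cover the spread between animals. Mucosa was dissociated with EDTA and TrypLE and tumors with a tumor dissociation kit.

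A barcode was selected if it came from a tumor library, held 500 or more unique molecular identifiers (UMIs) and 200 or more genes, had a mitochondrial share below 25%, and met a gate on raw UMIs. The gate asked for 3 or more UMIs of Arg1 and Inhba together, no fewer than of the monocyte genes Vcan and F13a1 together, at least 1 UMI of the macrophage and monocyte genes Cd68, Fcgr1 or Csf1r, under 20 UMIs of the complement genes C1qa, C1qb and C1qc, and none of Cxcr2, Cd3e or Cd79a, which mark neutrophils, T cells and B cells. Of 93871 retained tumor barcodes (118892 with those of the mucosa), 5017 were selected. The steps of the gate left 9803, 9494, 8452, 5539 and 5017 barcodes in the order Arg1 and Inhba, Vcan and F13a1, Cd68, Fcgr1 and Csf1r, C1q, and finally the genes of other leukocytes. Below they are called Arg1/Inhba cells. Since measured levels of 13 genes chose them, those genes are described and not tested.

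Arg1 encodes arginase 1, which splits arginine into ornithine and urea, and is a long-known product of tumor macrophages and of macrophages exposed to type 2 cytokines. Inhba encodes the subunit of activin A, a secreted ligand of the TGF-beta family that signals through activin receptors and SMAD2 and SMAD3 and is bound by follistatin. Monocytes that enter a tumor can take up inflammatory programs marked by IL-1 and neutrophil-attracting chemokines, or programs of resident-like macrophages marked by complement C1q, MHC class II and scavenger receptors.

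The libraries had 57221300 to 93157039 UMIs per tumor, and the Arg1/Inhba cells had a median of 5769 to 7324 UMIs per cell across tumors (median of tumors 6506) and gave sums of 2284507 to 5027541 UMIs per tumor. Any pair of libraries shared at most 0.391% of its barcodes. The labels named 7 of the 13 libraries female and gave both sexes to libraries of the same animal in 2 of the 3 mice, whereas all 13 libraries held 105 to 129 CPM of 4 Y-linked genes and at most 0.134 CPM of Xist. Sex was therefore not used in any comparison. Levels are given below as UMIs of a gene per 1000000 UMIs summed over the cells of a gate in 1 tumor (CPM). Since 3' counting gives 1 tag per transcript, lengths were not used.

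Arg1/Inhba cells made up 3.37% to 7.06% of the retained barcodes of a tumor (median 5.21%, 279 to 641 cells per tumor). The shares were 6.67%, 5.12%, 3.37% and 3.54% in tumors 5 to 8 of mouse A, 6.53% and 4.97% in tumors 9 and 10 of mouse B, and 5.29%, 4.68%, 7.06% and 6.49% in tumors 1 to 4 of mouse C. Averaged within mice, the share was 4.68% for mouse A, 5.75% for B and 5.88% for C, or 5.44 ± 0.66% (SD over 3 mice). The ranges of the 3 mice overlapped, and the difference between mice did not pass the test (exact permutation test of the F statistic over 3150 assignments of tumors to mice, p = 0.455). The exact 95% binomial interval of tumor 3, the highest, was 6.49% to 7.67% and that of tumor 7, the lowest, 3.03% to 3.74%, and these cover counting error only.

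Another pair of gates was set on the same tumors for comparison. The monocyte gate mirrored the rule, with 3 or more UMIs of Vcan and F13a1 and more of them than of Arg1 and Inhba, and held 4194 cells. The C1q gate took cells with 20 or more C1q UMIs whatever their Arg1 and Inhba UMIs, and held 6360 cells. Arg1/Inhba cells were 24.6% to 38.6% of the 3 gates together (median 31.6%). Their median depth was close to that of the monocyte gate (median of tumors 6719 UMIs) and below that of the C1q gate (9520 UMIs). In the mucosa the gate took 4 barcodes, all 4 from mucosa 2, and 1 of them had 35 Epcam UMIs. Mucosa 1 and 3 held 0 of 5188 and 0 of 9149, which by the limit of 3 counts allows shares of up to 0.0578% and 0.0328% (upper bounds of the exact 95% intervals 0.0711% and 0.0403%). Because the dissociation differed with the tissue, no test was made against the mucosa.

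**Figure D1:**
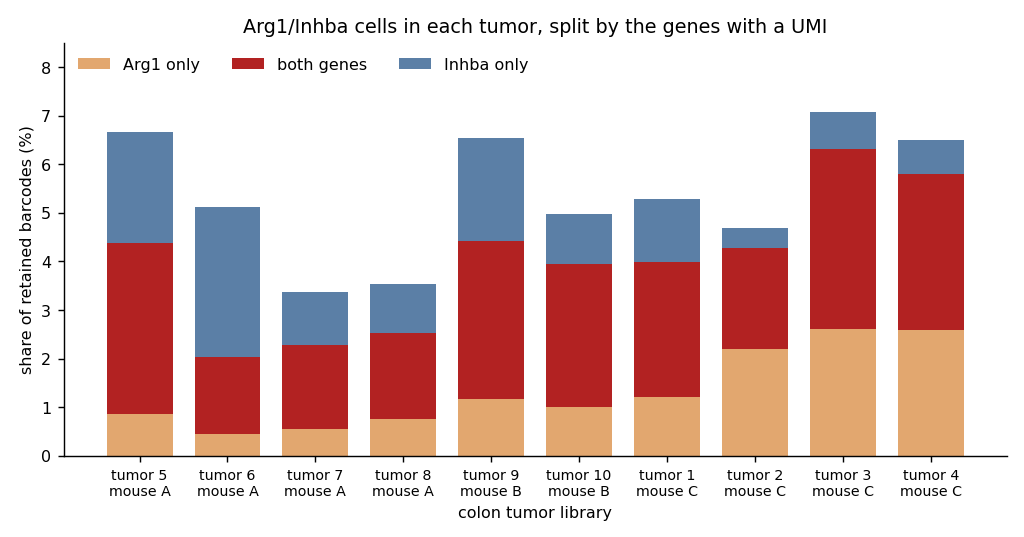
Share of Arg1/Inhba cells among the retained barcodes of each colon tumor library (vertical axis, %), ordered by mouse, with each bar split into cells with UMIs of Arg1 only, of both genes and of Inhba only. The totals run from 3.37% to 7.06%, and tumor 6 has the largest Inhba-only part, 60.4% of its Arg1/Inhba cells.

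The name macrophage was checked against markers that the rule did not use. The signal adaptor Tyrobp was at 2138 CPM over all Arg1/Inhba cells and the lysozyme gene Lyz2 at 5073 to 8076 CPM (median 6153) per tumor. Neither gene is particular to macrophages, and no level of another gate is given for them. The condition on Cd68, Fcgr1 or Csf1r was met with only 1 UMI by 649 cells (12.9%). Among cells with 10 or more Epcam UMIs, 53 (32.1%) met it with 1 UMI. Adgre1, which encodes the macrophage antigen F4/80, was at 15.2 to 41.7 CPM (median 29.4) in Arg1/Inhba cells, 38.6 to 72.9 CPM (median 54.9) in the monocyte gate and 97.2 to 192 CPM (median 157) in the C1q gate, so it was lower than in either, with log2 fold changes of -0.89 ± 0.10 (SE) and -2.17 ± 0.09. The mannose receptor Mrc1 was at 6.91 to 23.7 CPM (median 9.56), against 103 to 333 CPM (median 142) in the C1q gate. Adgre1 and Mrc1 were therefore low beside the C1q gate, and the cells are called by their leading genes and not as macrophages. That comparison is not independent of the rule, which capped C1q UMIs, while the C1q gate took cells at or above the cap. The cap alone took the barcodes from 8452 to 5539. The part of this split in the Adgre1 and Mrc1 differences from the C1q gate was not tested.

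Of the monocyte genes, the medians of Chil3 and Plac8 lay between those of the gates. Those gates were set on UMIs of Vcan and F13a1 or of C1q, which the rule also limits. The levels below are therefore not independent of the rule, and the part of that choice was not tested. Chil3, a chitinase-like protein of monocytes and alveolar macrophages, was at 867 to 2478 CPM (median 1683), against 1929 to 5369 CPM (median 4519) in the monocyte gate and 78.2 to 375 CPM (median 183) in the C1q gate. Plac8 was at 2116 to 3931 CPM (median 3198), against 3497 to 4815 CPM (median 4334) and 256 to 720.1 CPM (median 337). The receptor of monocyte-attracting chemokines, Ccr2, averaged 120.3 CPM, against 478 CPM in the monocyte gate (-1.95 ± 0.13) and 100.5 CPM in the C1q gate (0.52 ± 0.12, and -0.093 in cells of 3000 to 12000 UMIs). Cd14, the lipopolysaccharide coreceptor, went the other way, at 3322 CPM against 1523 and 1199.8 CPM, and its Arg1/Inhba values overlapped those of neither gate.

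Markers of other cells were summed beside these. Neutrophil markers (10 genes) summed to 1113 to 2126 CPM in Arg1/Inhba cells (median 1695), 828 to 2010 CPM in the monocyte gate and 246 to 595 CPM in the C1q gate. T cell markers stayed at or below 35.9 CPM and eosinophil markers at or below 1.90 CPM, with Epx and Prg2 at 0 in all 10 tumors. The 6 epithelial markers summed to 820 to 4648 CPM (median 1573), against 251 to 1094 CPM (median 639) in the monocyte gate and 240 to 664 CPM (median 327) in the C1q gate. That sum sat in few barcodes, since 461 cells (9.19%) had an Epcam UMI and 165 (3.29%) had 10 or more. Those 165 had a median of 24026 UMIs, 13130 CPM of epithelial markers and 298 CPM of Tyrobp. The 4556 cells (90.8%) with no Epcam UMI had 58.5 CPM of epithelial markers and 2442 CPM of Tyrobp. Each comparison was therefore repeated in cells with no Epcam UMI, an alternative chosen after seeing the data. A doublet caller marked 1.08% to 5.59% of the cells per tumor, which were kept.

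Arg1 and Inhba themselves, which chose the cells, are given as a description. Arg1 ranged from 573 to 2823 CPM (median 1788) in Arg1/Inhba cells and Inhba from 463 to 1834 CPM (median 1044). In the monocyte gate, where the rule kept them low, they averaged 24.4 and 40.8 CPM. In the C1q gate, whose rule ignores both, Arg1 was at 568 to 1611 CPM (median 1033) and Inhba at 35.2 to 192 CPM (median 90.5), and 35.6% to 53.7% of its cells carried 3 or more UMIs of the pair. Arg1 averaged 7.95 CPM in neutrophils, 11.7 in epithelial cells and 1.92 in T cells of the same tumors, and Inhba averaged 29.1, 5.98 and 1.22 CPM.

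The other 4 markers, Il1a, Timp1, Cxcl3 and Nos2, were not part of the rule, but they had been named from earlier results of these data, so their levels are a description too. Il1a, which encodes the alarm cytokine IL-1 alpha, was at 429 to 1592 CPM (median 1306) in Arg1/Inhba cells, 47.9 to 237 CPM (median 129) in the monocyte gate and 74.7 to 198 CPM (median 145) in the C1q gate, with no overlap between Arg1/Inhba cells and either gate. Cxcl3, a chemokine that draws neutrophils through CXCR2, was at 1705 to 5663 CPM (median 3143) in Arg1/Inhba cells, 82.8 to 369 CPM (median 262) in the monocyte gate and 107 to 681 CPM (median 242) in the C1q gate, again with no overlap. Nos2, the inducible nitric oxide synthase that competes with arginase for arginine, was at 103 to 855 CPM (median 519.7) in Arg1/Inhba cells, 2.43 to 52.5 CPM (median 27.0) in the monocyte gate and 14.1 to 157 CPM (median 58.8) in the C1q gate. Its range overlapped only that of the C1q gate. Timp1, an inhibitor of matrix metalloproteinases, was at 201 to 829 CPM (median 527) in Arg1/Inhba cells, 52.1 to 379 CPM (median 168) in the monocyte gate and 16.9 to 62.3 CPM (median 22.7) in the C1q gate, and here the overlap was with the monocyte gate. In log2 fold changes against the monocyte gate these were 3.21 ± 0.11 for Il1a, 3.87 ± 0.25 for Cxcl3, 4.38 ± 0.19 for Nos2 and 1.502 ± 0.17 for Timp1, and against the C1q gate 3.19 ± 0.11, 3.77 ± 0.24, 3.17 ± 0.17 and 4.29 ± 0.20.

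**Figure D2:**
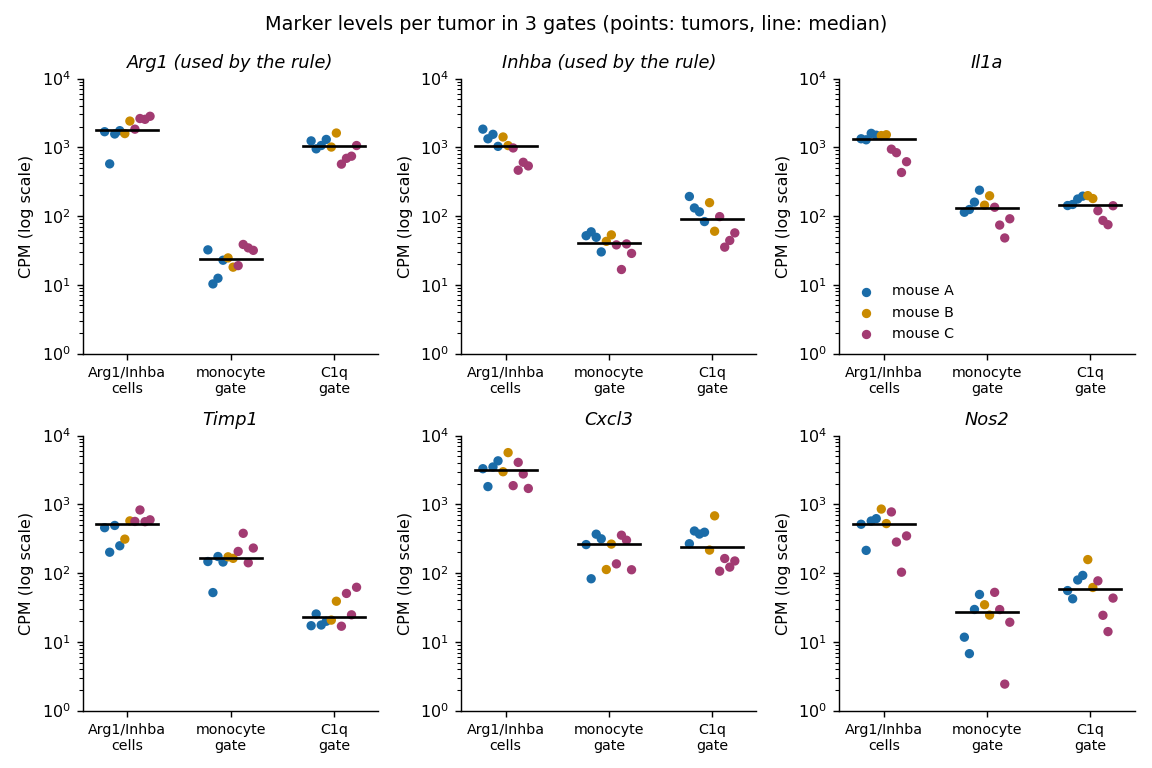
Levels of the 6 markers in 3 gates (vertical axis, CPM on a log scale), where each point is 1 of 10 tumors colored by mouse and each line the median. Il1a and Cxcl3 in Arg1/Inhba cells lie above every tumor of both other gates, while Arg1 and Inhba were used to set the gates.

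With each cell thinned to 2000 UMIs, so that depth was equal, Il1a was detected in 58.6 ± 10.1% of Arg1/Inhba cells (SD over 10 tumors), 11.4% of the monocyte gate, 16.7% of the C1q gate and 0.680% of T cells, which should lack it. Cxcl3 was detected in 45.0 ± 10.8%, against 7.55% and 8.81% in the gates and 4.02% in T cells, and Nos2 in 31.5 ± 11.7%, against 2.51%, 6.25% and 0.460%. For Timp1 the shares were 24.5 ± 5.2%, 14.3%, 4.24% and 0.177%. The cells below 2000 UMIs that were left out numbered 150 Arg1/Inhba cells, 34 and 82 cells of the gates and 72 T cells. At full depth Il1a had a UMI in 74.4%, Cxcl3 in 50.3%, Nos2 in 42.2% and Timp1 in 36.3% of Arg1/Inhba cells. Cxcl3 was thus high in a part of the cells, and no single one of the 4 markers had a UMI in every cell.

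At the threshold of the rule, the 373 cells with exactly 3 UMIs of Arg1 and Inhba had median levels over tumors of 393 CPM for Il1a, 819 CPM for Cxcl3 and 167 CPM for Nos2. The 451 cells with 2 UMIs that met the rest of the rule had 398, 388 and 122 CPM. All Arg1/Inhba cells had 1306, 3143 and 520 CPM, so the cells just inside the threshold were nearer to those just outside it than to the rest.

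To show the regulatory sequence of the markers described above, the bases just upstream of their start sites are given, from RefSeq on GRCm38.p6, as the 160 bases before the annotated start, 5′ to 3′ on the strand of the gene. Of the 6 markers, 4 matched the promoter table, and Arg1 and Nos2 had no entry. Capitals mark matches to 3 motifs searched on both strands, which were AP-1 (TGANTCA), the hypoxia response core (ACGTG) and an NF-kappaB form.

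Inhba (chr13:16011691-16011850, plus strand): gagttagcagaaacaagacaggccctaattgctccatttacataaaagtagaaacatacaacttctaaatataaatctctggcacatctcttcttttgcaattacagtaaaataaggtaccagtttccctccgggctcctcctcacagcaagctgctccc
Il1a (chr2:129309973-129310132, minus strand): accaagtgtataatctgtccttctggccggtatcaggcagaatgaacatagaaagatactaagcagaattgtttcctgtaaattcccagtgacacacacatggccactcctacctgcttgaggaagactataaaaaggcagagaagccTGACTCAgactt
Timp1 (chrX:20870006-20870165, plus strand): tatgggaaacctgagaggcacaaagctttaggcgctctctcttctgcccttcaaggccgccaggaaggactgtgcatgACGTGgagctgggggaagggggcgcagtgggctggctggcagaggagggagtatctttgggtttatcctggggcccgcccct
Cxcl3 (chr5:90785941-90786100, plus strand): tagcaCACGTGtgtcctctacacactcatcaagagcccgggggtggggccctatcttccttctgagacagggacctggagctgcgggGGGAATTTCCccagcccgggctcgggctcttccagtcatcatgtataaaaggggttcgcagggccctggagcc

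Il1a held an AP-1 match from -12 to -6 relative to the start, Timp1 a hypoxia core from -82 to -78, and Cxcl3 an NF-kappaB match from -73 to -64 and a hypoxia core in a palindrome read on both strands from -155 to -150. The window of Inhba held none of the 3. Over 32851 promoter windows of 300 bases, AP-1 was found in 7.81%, the hypoxia core in 19.6% and the NF-kappaB form in 1.63%. A match describes letters, and binding was not measured.

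Against the monocyte gate the question was how Arg1/Inhba cells differ from cells with monocyte transcripts in the same tumor. Both groups were set by UMIs of Arg1 and Inhba against those of Vcan and F13a1. Genes that go with these can differ by that choice, and its part was not tested. Most tested genes of the lists of inflammatory cytokines and enzymes, of matrix remodeling and the plasminogen system, and of hypoxia and glycolysis were higher in Arg1/Inhba cells, and named genes such as the integrin Itga4 and the granule protease Prtn3 were lower. UMIs were summed per tumor and gate and tested in edgeR's quasi-likelihood model with the tumor as a block. Each adjusted p-value below is a Benjamini-Hochberg value over all genes of the fit that gave it. The subsets and the mice had fits of their own, and those between mice had no block. Of 10275 genes outside the rule, 52.0% passed (26.2% higher, 25.9% lower), so a share of called genes has to be read against this background. In cells with no Epcam UMI 52.9% passed (26.1% higher, 26.9% lower).

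Of the list of inflammatory cytokines and enzymes, 15 of 16 tested genes were higher and 1 was lower, with a median log2 fold change of 2.05 against 0.01 for all genes. Il1b, the secreted IL-1, was the most abundant at 6747 to 10768 CPM (median 9259.6), against 2896 to 4597 CPM (median 3584), with no overlap (1.35 ± 0.08, adjusted p = 4.52e-13). Its antagonist Il1rn went from 308 ± 135 CPM (SD, n = 10 tumors) to 1207 ± 398 CPM, so agonists and antagonist were high together. Ptgs2 and Ptges, which make prostaglandin E2, differed by 1.89 ± 0.12 and 4.12 ± 0.28. Csf3, the granulocyte growth factor G-CSF, ranged from 7.62 to 261 CPM (median 97.1), against 0.772 to 24.9 CPM (median 8.18). Il23a, the p19 subunit of IL-23, differed by 3.13 ± 0.18, Il6 by 2.46 ± 0.16, Tnf by 1.83 ± 0.14 and Acod1, which makes itaconate, by 2.03 ± 0.16. Each of these 4 was higher in 10 of 10 tumors, and the ranges of each overlapped between the gates. Nlrp3, the inflammasome sensor, differed less (0.69 ± 0.07), and Il18 was lower (-0.33 ± 0.08, adjusted p = 0.00137). The list holds Il1a and Nos2, which were named from these data.

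Of the chemokines, 11 of 18 were higher and 3 lower, with Cxcl3 among the higher. Cxcl2, a ligand of CXCR2 like Cxcl3, was the most abundant of those named, and Cxcl1, another, was far lower in level. Cxcl2 was at 8539.6 to 22477 CPM (median 14128) against 1659.6 to 5070.1 CPM (median 2859) and Cxcl1 at 75.1 to 269 CPM (median 109) against 2.79 to 30.5 CPM (median 19.5), both without overlap. Ccl3 and Ccl4, attractants of monocytes and T cells, were at 812 ± 438 and 1594 ± 834 CPM, against 69.4 ± 33.2 and 256 ± 167 CPM. Ccl24, an eosinophil attractant, went from 16.4 ± 13.4 to 644 ± 491 CPM (4.94 ± 0.32, adjusted p = 4.73e-12), and its 10 tumors ran from 115 to 1324 CPM. Cxcl16 differed by 2.38 ± 0.13, Ccl5 by 3.89 ± 0.34 and Cxcl9, induced by interferon gamma, by 1.59 ± 0.23. The monocyte attractant Ccl2 was lower (-0.75 ± 0.24, adjusted p = 0.00989), as was Ccl6 (-0.99 ± 0.13).

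Genes around arginine were higher beside Arg1. Ass1, which rebuilds arginine from citrulline, was at 347 to 945 CPM (median 611) against 41.3 to 148 CPM (median 82.8) (2.83 ± 0.15, adjusted p = 9.74e-14). The arginine transporter Slc7a2 was at 23.7 to 130.2 CPM (median 61.0) against 1.74 to 12.3 CPM (median 5.88) (3.60 ± 0.27). The cystine transporter Slc7a11 differed by 1.70 ± 0.08, the mitochondrial arginase Arg2 by 0.45 ± 0.10 and the polyamine enzyme Odc1 by 0.52 ± 0.10. In all, 9 of 14 genes of arginine, polyamine and itaconate metabolism were higher and 1 was lower. This list holds Nos2, which was named from these data.

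Of 14 tested genes of the activin and TGF-beta pathway, 3 were higher and 2 lower. Follistatin (Fst), which binds activin, was at 5.90 to 71.0 CPM (median 16.2) against 0.952 to 12.1 CPM (median 6.04) (1.59 ± 0.37, adjusted p = 8.15e-04), but in cells with no Epcam UMI the value was 0.17 and in cells of 3000 to 12000 UMIs it was -0.11, and neither passed. The ligand Tgfb1 was slightly higher (0.25 ± 0.07) and the receptor Tgfbr2 lower (-0.51 ± 0.10). Smad2, Smad3 and Smad7 did not pass.

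In the matrix and plasminogen list, 15 of 18 genes were higher, Timp1 among them, and 2 lower. The elastase Mmp12 had the largest log2 fold change of the comparison by the naming rule, with 379 to 809 CPM (median 583) against 1.85 to 9.02 CPM (median 3.09) (6.98 ± 0.30, adjusted p = 3.67e-15). The collagenase Mmp13 followed at 13.7 to 334 CPM (median 70.3) against 0 to 2.60 CPM (median 0.612) (6.97 ± 0.47), with a wide spread over tumors. The gelatinase Mmp9 and the membrane-anchored Mmp14 differed by 3.91 ± 0.51 and 2.40 ± 0.09. Spp1, which encodes osteopontin, was at 767 to 3940.3 CPM (median 1271) against 100.03 to 239 CPM (median 155) (3.30 ± 0.35). The urokinase receptor Plaur and the plasminogen activator inhibitor Serpinb2 differed by 0.61 ± 0.08 and 2.09 ± 0.25. The neutrophil collagenase Mmp8 was lower (-1.34 ± 0.09), and so was Mmp19 (-0.64 ± 0.11).

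Each of the 24 tested genes of hypoxia and glycolysis was higher, with a median log2 fold change of 1.00. Gapdh, the most abundant of those named, was at 2746 to 4101 CPM (median 3492) against 1593 to 2005 CPM (median 1842) with no overlap, and Aldoa, Pgk1 and Ldha differed by 1.16 ± 0.08, 1.15 ± 0.08 and 1.00 ± 0.07. Hilpda, a lipid droplet protein, was at 218 to 902 CPM (median 573) against 50.7 to 175 CPM (median 117) (2.39 ± 0.15), the prolyl hydroxylase Egln3 differed by 2.56 ± 0.21, Bnip3 by 1.89 ± 0.16 and the oxidoreductase Ero1l by 1.88 ± 0.12. All 24 were also higher in cells with no Epcam UMI, where the median was 1.14. Oxygen was not measured. Of 9 growth factors, 6 were higher and 2 lower, among them Vegfa (1.38 ± 0.12), the EGF receptor ligands Hbegf (2.04 ± 0.12) and Areg (1.21 ± 0.21), and Pdgfa (1.71 ± 0.19).

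Antigen presentation genes were higher than in the monocyte gate, with 8 of 11 higher and 1 lower. H2-Aa was at 445 to 1369.6 CPM (median 691) against 138 to 370.0 CPM (median 232) (1.74 ± 0.12), and the invariant chain Cd74 and the checkpoint ligand Cd274 differed by 1.69 ± 0.11 and 1.61 ± 0.11. Of lipid-associated macrophage genes, 8 of 16 were higher and 2 lower. The tetraspanins Cd9 and Cd63 differed by 3.03 ± 0.13 and 1.87 ± 0.14. Interferon response genes were mixed, with 7 of 13 higher and 3 lower, and 5 higher and 2 lower in cells with no Epcam UMI. Isg15 differed by 0.88 ± 0.12. Of 12 genes of S phase and mitosis 1 passed, Tyms. Immediate early genes were not higher as a group, with 5 of 17 higher, 4 of them heat shock genes or chaperones such as Hspa1a (0.84 ± 0.14), and 7 lower, such as Fos (-0.83 ± 0.08).

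The remaining genes named by rule (largest log2 fold changes among genes of at least 50 CPM that moved the same way in all 10 tumors, a set of 471 higher and 861 lower genes) were Ccl17 (4.69 ± 0.51), Pf4 (4.09 ± 0.22) and Cxcl14 (3.93 ± 0.32) among the higher, all chemokines. Among the lower were the integrin Itga4 (-2.27 ± 0.09), the neutrophil and monocyte granule protease Prtn3 (-2.82 ± 0.20), Ifitm6 (-2.67 ± 0.14), Ramp1 (-2.36 ± 0.16), Gm9733 (-2.33 ± 0.14), Arhgap15 (-2.24 ± 0.13), Selenop (-2.19 ± 0.12), Clec4a3 (-2.15 ± 0.09) and Fam129a (-2.10 ± 0.10). None of these 9 lower genes overlapped between the gates, as 7.38% of all tested genes did not. The naming rule takes the largest differences and so favors genes without overlap. The epithelial markers Epcam (1.04 ± 0.21) and Krt8 (1.80 ± 0.29) were among the genes that were higher, as were 5 of 8 tested neutrophil markers, with 2 lower. Leaving out cells with Epcam aside, the part of these cells in other values was not tested.

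Against the C1q gate the question was how Arg1/Inhba cells differ from cells rich in C1q transcripts in the same tumor. Most tested genes of the lists of inflammatory cytokines and enzymes, of hypoxia and glycolysis and of the interferon response were higher in Arg1/Inhba cells, whereas most of the MHC class II and lipid-associated lists and all of S phase and mitosis were lower. Neutrophil markers were higher in 7 of 8 cases and epithelial markers in 6 of 6, and their part in the other values was not tested beyond leaving out cells with Epcam. Of 10275 genes, 71.4% passed (35.3% higher, 36.1% lower), and 19.6% did not overlap. In cells with no Epcam UMI 75.3% passed (36.8% higher, 38.5% lower). The median log2 fold change of all tested genes was -0.02, and 0.25 in DESeq2, which tested 15804 genes. A large part of the C1q gate itself carried Arg1, so the comparison was repeated with its cells under 3 UMIs of Arg1 and Inhba alone, an alternative chosen after seeing the data. Those cells were chosen by low UMIs of the genes that also chose the Arg1/Inhba cells. The part of that choice in the changes below was not tested. Against those cells the log2 fold change went from 6.26 to 9.51 for Serpinb2, from 5.27 to 7.19 for Slpi, from 3.88 to 5.68 for Il6 and from 3.77 to 7.48 for Cxcl3. It did not rise for Dmkn (4.08 to 4.07) and Saa1 (4.02 to 3.76), and 2 genes passed in both fits with opposite signs.

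All 16 tested inflammatory cytokines and enzymes, Il1a and Nos2 among them, were higher, with a median log2 fold change of 2.51. Il23a was at 9.83 to 119 CPM (median 54.3) against 1.51 to 9.45 CPM (median 2.76) (4.04 ± 0.17, adjusted p = 3.48e-16) and Il6 at 22.9 to 126 CPM (median 57.0) against 1.62 to 10.2 CPM (median 5.30) (3.88 ± 0.16), both with no overlap. Il1b, Il1rn and Osm, a cytokine of the IL-6 family, differed by 2.17 ± 0.08, 2.13 ± 0.16 and 2.33 ± 0.08 and did not overlap either. Csf3 (3.61 ± 0.23), Ptgs2 (2.90 ± 0.13), Acod1 (2.34 ± 0.16), Il10 (1.73 ± 0.27) and Tnf (1.26 ± 0.13) did overlap. Tnf was higher in 9 of 10 tumors and Il10 in 8.

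Chemokines went both ways, with 10 of 18 higher, Cxcl3 among them, and 4 lower. The CXCR2 ligands Cxcl2 (2.56 ± 0.11) and Cxcl1 (1.61 ± 0.15), the monocyte and T cell attractants Ccl3 (2.31 ± 0.24) and Ccl4 (2.32 ± 0.31), the interferon-induced Cxcl10 (1.93 ± 0.19) and Ccl24 (2.55 ± 0.26) were higher. Ccl8 was the most strongly lower gene by the naming rule, at 0.782 to 3.82 CPM (median 1.48) against 130.0 to 799 CPM (median 507) (-7.69 ± 0.24, adjusted p = 2.81e-18). Ccl12 (-2.30 ± 0.38) and Cxcl16 (-0.49 ± 0.12) were lower too.

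Of the arginine list, which holds Nos2, 8 of 14 genes were higher and 2 lower. The differences were smaller than against the monocyte gate for Ass1 (1.12 ± 0.14) and Slc7a2 (1.15 ± 0.20) and larger for Arg2 (2.13 ± 0.11). The spermidine synthase Srm was lower (-1.04 ± 0.11). In the activin and TGF-beta list, 8 of 14 were higher and 2 lower. Fst was at 5.90 to 71.0 CPM (median 16.2) against 0.495 to 4.52 CPM (median 1.13) (3.48 ± 0.38, and 3.35 in cells with no Epcam UMI), Tgfb1 differed by 1.25 ± 0.07 and the activin receptor Acvr1b by 1.01 ± 0.08, while the TGF-beta receptors Tgfbr1 (-1.27 ± 0.08) and Tgfbr2 (-1.63 ± 0.09) were lower, with no overlap for any of these 5.

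**Figure D3:**
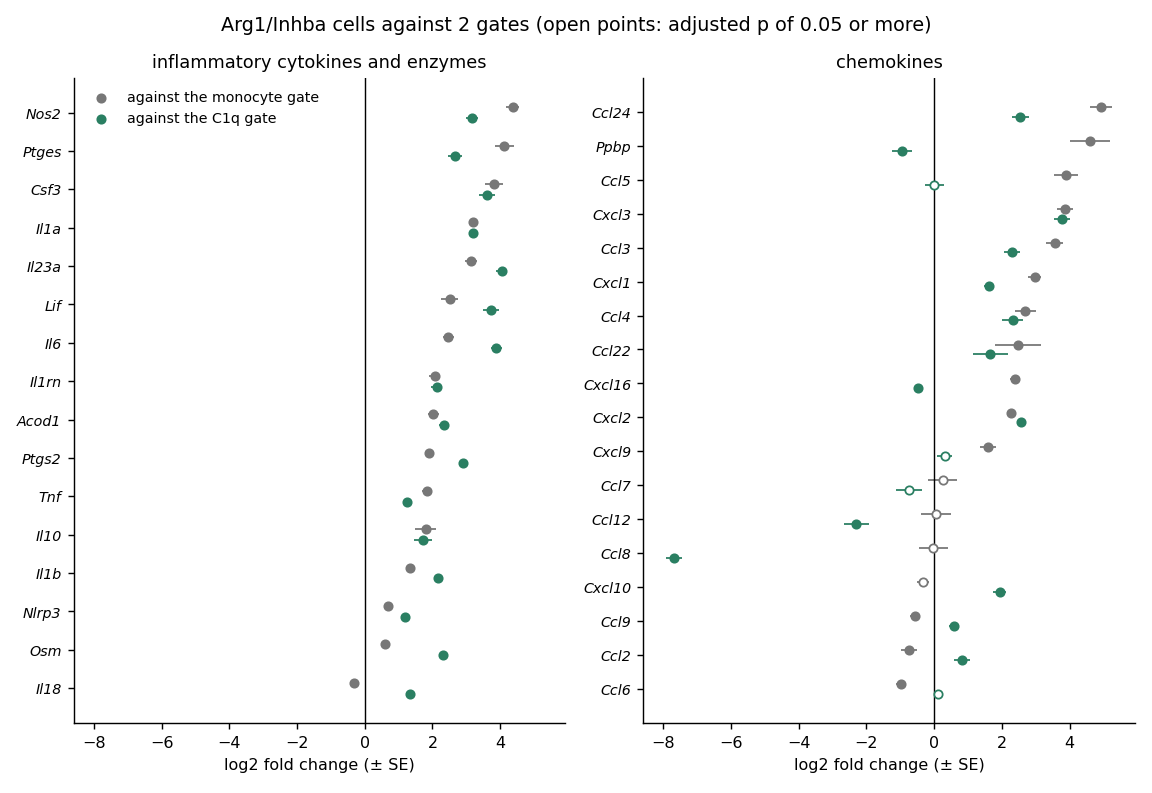
Log2 fold changes with standard errors (horizontal axis) of the tested inflammatory and chemokine genes in Arg1/Inhba cells against the monocyte gate (gray) and the C1q gate (green), where open points did not pass the adjusted p of 0.05. The inflammatory genes lie right of 0 in both comparisons except Il18 against the monocyte gate, and the chemokines spread to both sides.

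Matrix genes were split, with 10 of 18 higher, Timp1 among them, and 4 lower. Serpinb2 had the largest positive log2 fold change, at 22.3 to 192 CPM (median 110.4) against 0 to 5.46 CPM (median 0.812) (6.26 ± 0.32, adjusted p = 1.37e-14). Thbs1 (thrombospondin 1) differed by 2.54 ± 0.11, fibronectin (Fn1) by 1.64 ± 0.11, Plaur by 1.74 ± 0.08 and Mmp19 by 1.44 ± 0.11. The inhibitor Timp2 was lower (-2.75 ± 0.13), opposite to Timp1. Mmp9 was lower (-1.07 ± 0.30) but higher, at 1.05, against C1q gate cells with under 3 UMIs of Arg1 and Inhba. Mmp12, Mmp13, Mmp14 and Spp1 did not pass, and Spp1 averaged 1729 CPM here and 1742 CPM in the C1q gate. Within the C1q gate, Spp1 averaged 3106 CPM in cells with 3 or more UMIs of Arg1 and Inhba and 422 CPM in the others. Those 2 parts had Arg1 at 2002 and 23.0 CPM by construction, and Inhba at 187 and 5.403 CPM.

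Lipid-associated and MHC class II genes set the cells apart in the other direction. Of 16 lipid-associated genes, 12 were lower and 4 higher. Apoe was at 2599.6 to 4031 CPM (median 3054) against 26938 to 35399 CPM (median 31792) (-3.06 ± 0.07, adjusted p = 1.01e-21), and the receptor Trem2, Gpnmb, the fatty acid binding protein Fabp5 and the cathepsin Ctsd differed by -1.89 ± 0.09, -3.02 ± 0.35, -2.36 ± 0.18 and -1.37 ± 0.10. Cd9 was higher (1.66 ± 0.12) where the other tetraspanin, Cd63, was lower (-2.28 ± 0.13). In the MHC list all 7 genes of the class II pathway were lower, such as H2-Aa (-2.18 ± 0.12) and Cd74 (-1.76 ± 0.11), while the 4 costimulatory and checkpoint genes Cd40, Cd80 (1.48 ± 0.07), Cd86 and Cd274 (1.74 ± 0.10) were higher. The growth factors Igf1 (-4.88 ± 0.44) and Hgf (-2.46 ± 0.16) were lower, and Vegfa (1.06 ± 0.11) and Areg (2.58 ± 0.21) higher.

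Hypoxia and glycolysis genes were higher in 23 of 24 cases (median 1.03), with Egln3 at 29.7 to 147 CPM (median 80.4) against 12.5 to 22.6 CPM (median 18.5), Ndrg1 differing by 2.52 ± 0.08 and the glucose transporter Slc2a1 by 1.49 ± 0.08. Interferon response genes were higher in 12 of 13 cases, such as Isg15 (1.68 ± 0.13) and Gbp2 (1.27 ± 0.16). All 12 genes of S phase and mitosis were lower. The C1q gate, set on raw UMIs, held deeper cells (median of tumors 9520 against 6506 UMIs), and thinning came after the gates. Mki67 was at 2.79 to 22.2 CPM (median 14.3) against 31.1 to 74.7 CPM (median 39.1), Top2a differed by -1.69 ± 0.38 and Cdk1 by -2.32 ± 0.32, and at 2000 UMIs per cell Mki67 was detected in 1.20% of Arg1/Inhba cells and 4.22% of the C1q gate, with 3.75% and 14.7% before thinning. The list of immediate early genes was 9 higher and 3 lower of 17, but 6 and 6 in cells of 3000 to 12000 UMIs, so no direction is given for it.

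Further genes named by rule (from 686 higher and 757 lower) were, among the higher, the antiprotease Slpi, at 4287 to 8793 CPM (median 6508) against 69.8 to 401 CPM (median 190.2) (5.27 ± 0.21), Dmkn (4.08 ± 0.14) and the coagulation starter F3, or tissue factor (3.79 ± 0.23). Ly6d (4.32 ± 0.52) and Saa1 (4.02 ± 0.43) were named too, but neither passed the filter on low counts in cells with no Epcam UMI. The lower genes were Mgl2 (-6.49 ± 0.22), Dnase1l3 (-5.31 ± 0.19), the adhesion molecule Vcam1 (-5.19 ± 0.18), H2-M2 (-4.62 ± 0.36), Ms4a7 (-4.48 ± 0.09), Hpgds (-4.20 ± 0.14), the fractalkine receptor Cx3cr1 (-4.07 ± 0.16), Selenop (-3.86 ± 0.12) and Mrc1 (-3.75 ± 0.15). None of these 9 overlapped between the gates, as 19.6% of all tested genes did not, and here too the naming rule favors genes without overlap.

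The 2 genes of the rule were not carried by the same cells throughout. Of 5017 cells, 1245 (24.8%) had UMIs of Arg1 and none of Inhba, 1320 (26.3%) of Inhba and none of Arg1, and 2452 (48.9%) of both. Inhba-only cells were 8.53% to 60.4% of a tumor's Arg1/Inhba cells (median 26.7%) and Arg1-only cells 8.79% to 47.0% (median 20.6%). Arg1 gave 47.8%, 30.2%, 50.3% and 62.8% of the UMIs of the pair in the tumors of mouse A, 52.8% and 69.4% in those of mouse B, and 65.2%, 85.0%, 80.8% and 84.1% in those of mouse C. A missing UMI is not a missing transcript, and the subsets describe which gene was counted. Median depths were alike, at 5945 UMIs for Arg1-only and 6496 for Inhba-only cells (medians of tumors).

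Over all cells of a subset, those with both genes had the highest averages of the other genes given here. Cxcl3 averaged 4667 CPM in them, 1326 CPM in Arg1-only and 1991 CPM in Inhba-only cells. Il1a averaged 1413, 390.3 and 1185 CPM in that order, so it was low only in Arg1-only cells. Spp1 averaged 2439, 1692 and 257 CPM, so it was low only in Inhba-only cells. Nos2 averaged 612, 270.1 and 401 CPM. In cells with no Epcam UMI, summed over tumors, Il1a was at 1492 CPM with both genes and 1546 CPM in Inhba-only cells, so its lead was absent. Cxcl3 was at 4912 and 2209 CPM in these 2 subsets and Nos2 at 669 and 495 CPM. Cells with both genes have by construction more UMIs of the pair, and these levels are a description.

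Arg1-only and Inhba-only cells were compared within tumors. Of 5609 genes tested, 22.8% passed (11.5% higher in Arg1-only, 11.4% lower), and 1.68% did not overlap. Pf4 and 6 of 12 lipid-associated genes were higher in Arg1-only cells, and 12 of 14 inflammatory genes, Cxcl9 and Cxcl10 in Inhba-only cells. Both subsets contain barcodes with epithelial RNA. No Epcam UMI was present in 90.7% of Arg1-only and 89.5% of Inhba-only cells, while 3.78% and 4.85% had 10 or more. The latter weighed more in the sums than in the cell counts. They held from 120138 of 1380246 UMIs (tumor 9) to 409032 of 778761 (tumor 4) in Inhba-only sums. In Arg1-only sums they held from 0 of 297052 UMIs (tumor 6) to 279436 of 720489 (tumor 10). With cells that had no Epcam UMI, 42.6% of 4210 tested genes passed (19.8% higher, 22.8% lower), so for several genes below the log2 fold change in those cells follows that in all cells. With the tumors of a mouse summed, 2 of 14 tested lipid-associated genes (Trem2 and Ctsl) were higher in Arg1-only cells and 8 of 16 inflammatory genes in Inhba-only cells.

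In Arg1-only cells, Pf4 (the chemokine platelet factor 4) was at 137 to 538 CPM (median 259) against 1.45 to 19.9 CPM (median 6.27) in Inhba-only cells, with no overlap (5.28 ± 0.27, adjusted p = 3.25e-08, then 5.21). Ms4a7 was at 34.1 to 138 CPM (median 57.0) against 3.85 to 13.7 CPM (median 7.56) (2.84 ± 0.22, then 2.52), and the lipid receptor Trem2 at 87.4 to 273 CPM (median 173) against 25.7 to 63.1 CPM (median 50.3) (1.83 ± 0.16, then 1.55), so both genes that were lower in Arg1/Inhba cells than in the C1q gate were higher in their Arg1-only part. The other genes named by rule were Tmem37 (3.38 ± 0.43, then 2.82), the ecto-nucleotidase Nt5e (2.62 ± 0.19, then 2.14), the collagen receptor Lair1 (2.54 ± 0.25), Slc43a2 (2.01 ± 0.22), the integrin Itgb5 (1.96 ± 0.21), the transcription factor Maf (1.93 ± 0.23, then 1.63) and the complement receptor C3ar1 (1.76 ± 0.16). Of 12 lipid-associated genes tested 6 were higher and 0 lower, such as Apoe (1.10 ± 0.13, then 0.81) and Ctsd (0.90 ± 0.13). Spp1 was at 399 to 3682 CPM (median 1633) against 136 to 433 CPM (median 251) and was higher in 9 of 10 tumors (2.30 ± 0.41, then 1.98). Tgfbr1 (1.28 ± 0.16), Tgfbi (1.19 ± 0.13), Mmp12 (1.47 ± 0.26), Fn1 (1.05 ± 0.11), Ccr2 (1.63 ± 0.22) and Fos (1.296 ± 0.11) were higher too. MHC and costimulation genes went both ways, with 5 of 10 higher in Arg1-only and 3 in Inhba-only cells. In cells with no Epcam UMI 2 of 10 were higher in Arg1-only cells, while Cd40 (-2.08), Cd274 (-1.34) and Cd80 (-0.39) were higher in Inhba-only cells. With the tumors of a mouse summed the 5 did not pass (the lowest adjusted p in edgeR's test was 0.121, for H2-DMa), and 1 of 11 tested genes was higher in Inhba-only cells.

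In Inhba-only cells, 12 of 14 tested inflammatory genes were higher and 0 were lower. Il6 was at 24.4 to 127 CPM (median 51.3) against 2.23 to 17.2 CPM (median 9.55) in Arg1-only cells, with no overlap (log2 fold change of Arg1-only over Inhba-only -2.47 ± 0.29, adjusted p = 3.15e-05, then -2.74). Il1a was at 430.0 to 1691 CPM (median 1405) against 178 to 687 CPM (median 399.7) (-1.63 ± 0.20, then -1.90). Acod1 was at 118 to 522 CPM (median 372) against 18.3 to 181 CPM (median 89.3) (-2.19 ± 0.24, then -2.49), and Il1rn, Il23a and Ptgs2 differed by -1.66 ± 0.23, -1.91 ± 0.20 and -1.497 ± 0.20. Among chemokines, the interferon-induced Cxcl10 was at 549.6 to 3015 CPM (median 1321) against 170.5 to 519.7 CPM (median 279), with no overlap (-2.27 ± 0.29, then -2.61), and Cxcl9 differed by -2.51 ± 0.30, Ccl4 by -2.12 ± 0.46 and Ccl3 by -1.38 ± 0.24. Of the 14 tested genes of the chemokine list, which does not hold Pf4, 6 were higher in Inhba-only and 1, Ccl24, in Arg1-only cells (2.43 ± 0.71, adjusted p = 0.0219, then 2.03). Arg2 (-1.11 ± 0.19), Odc1 (-1.08 ± 0.18), Cd40 (-1.60 ± 0.21), Cd274 (-0.92 ± 0.16), Gbp5 (-1.55 ± 0.20) and Serpinb2 (-2.83 ± 0.48) were also higher in Inhba-only cells. Mir155hg, the host gene of the inflammatory microRNA miR-155, was at 18.3 to 149 CPM (median 76.1) against 4.46 to 31.5 CPM (median 7.46) (-2.90 ± 0.27, then -3.14).

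The other 9 genes that the naming rule gave for Inhba-only cells were Mt4, Wnt6, Mgp, Dkk2, Hspb1, Cald1, Bex1, Nkd1 and Spock2, among them Wnt pathway genes. Mt4 was at 3.82 to 1902 CPM (median 329) against 0 to 88.8 CPM (median 1.43) (-6.10 ± 0.41, adjusted p = 8.03e-07), the largest difference by that rule, Wnt6 differed by -4.15 ± 0.40, Mgp by -4.02 ± 0.41 and Dkk2 by -3.87 ± 0.34. None of the 9 passed the low-count filter once cells with an Epcam UMI were left out. Mt4 then averaged 1.74 and 2.34 CPM in Arg1-only and Inhba-only cells, Wnt6 1.84 and 0.619 CPM, Mgp 2.07 and 2.88 CPM and Dkk2 1.08 and 0.732 CPM. Their high levels in Inhba-only sums were therefore in barcodes with Epcam RNA. Fst, higher in Inhba-only cells (-2.04 ± 0.47), did not pass that filter either.

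**Figure D4:**
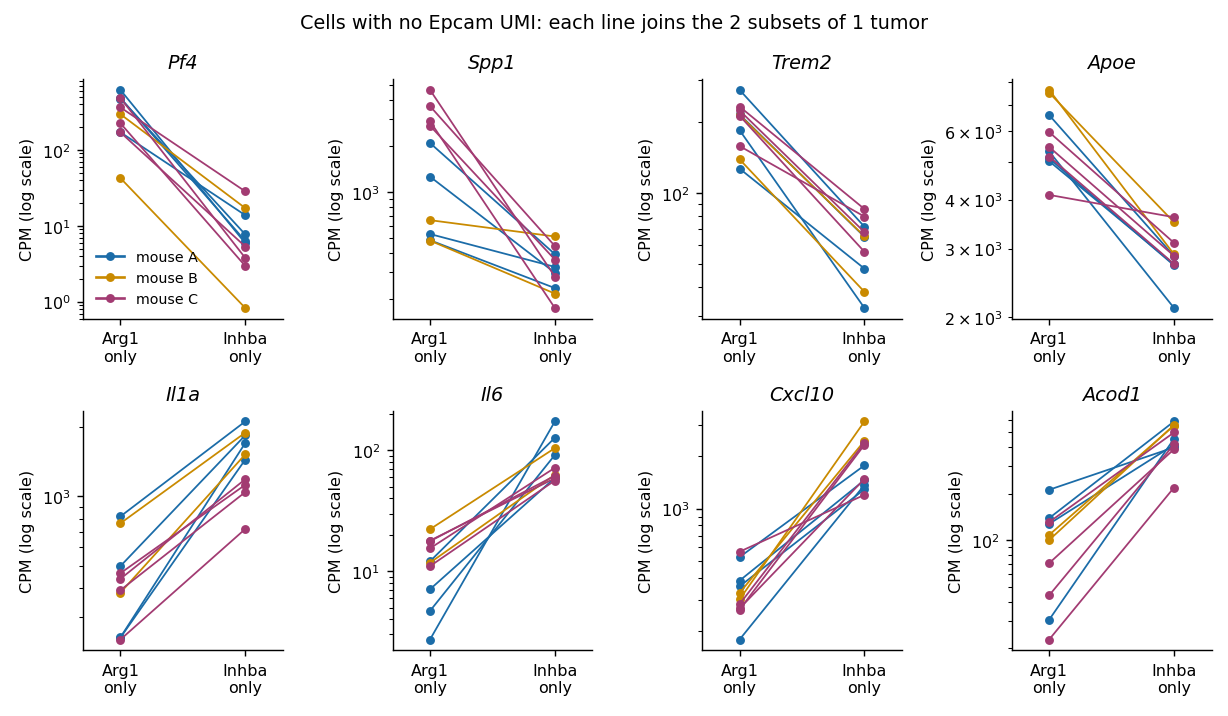
Levels of 8 genes in Arg1-only and Inhba-only cells with no Epcam UMI (vertical axes, CPM on a log scale), where each line joins the 2 subsets of 1 tumor and colors give the mouse. All 10 lines fall from Arg1-only to Inhba-only for Pf4, Spp1, Trem2 and Apoe and rise for Il1a, Il6, Cxcl10 and Acod1.

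The count of genes that passed rested on mouse A and on taking each tumor as a sample, since 458 genes passed without mouse A and 276 with the tumors of a mouse summed, against 1281. With mice as samples, Il6 (adjusted p = 0.0304), Il1a (0.0276), Acod1 (0.00871), Cxcl9 (0.0115) and Cxcl10 (0.0273) still passed in edgeR's test, and with them 40 of 67 named genes in all. The other 27 did not, among them Spp1 (0.107), Apoe (0.0666), Ctsd (0.0900), Ccl24 (0.180), Tgfbi (0.0656), Fn1 (0.0858), Ccr2 (0.0544), Arg2 (0.0544), Cd274 (0.0809), Serpinb2 (0.0501), Tnf (0.0845) and Il1b (0.0625).

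Between the 3 mice, 157 of 10686 genes differed in Arg1/Inhba cells (1.47%, edgeR's quasi-likelihood F test over the 10 tumors), of which 129 were lowest in mouse C, the youngest, and 115 highest in mouse A. The count rested on single tumors, from 3 without tumor 4 to 254 without tumor 9. Serpinb2 had the lowest p, with 167, 192, 174 and 129.6 CPM in the tumors of mouse A, 91.2 and 164 in those of mouse B and 22.3, 23.9, 38.1 and 27.4 in those of mouse C (adjusted p = 0.00189). Tnf was at 309.9, 431, 267 and 348 CPM in the tumors of mouse A, 330.2 and 267 in those of mouse B and 114, 109.5, 77.8 and 102 in those of mouse C (adjusted p = 0.00692). The values of mouse C lay below all others for both genes. Rap2b (0.00519), Fabp5 (0.00692) and the adhesion molecule Icam1 (0.00692) were the other genes of lowest p. Without tumor 4, the 3 genes that passed were Serpinb2, Rap2b and Arg2, so each other gene given here as different between mice in Arg1/Inhba cells no longer passed.

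Of 17 tested inflammatory genes, 4 differed between mice (Tnf, Il23a, Csf3 and Nlrp3), all lowest in mouse C. Il23a was at 88.2, 50.3, 73.5 and 58.2 CPM in the tumors of mouse A, 70.7 and 119 in those of mouse B and 9.83, 21.4, 15.8 and 13.9 in those of mouse C. Of the arginine list, Arg2 and Odc1 differed, both lowest in mouse C, and Arg2 was at 306, 347, 275 and 301 CPM in the tumors of mouse A, 234 and 241 in those of mouse B and 122, 130.0, 122 and 95.7 in those of mouse C. Spp1, at 969, 903, 767 and 1391 CPM in the tumors of mouse A, 1151 and 804 in those of mouse B and 1907, 2507, 2952 and 3940.3 in those of mouse C, and Fabp5, at 174, 168, 191 and 226 CPM in the tumors of mouse A, 95.9 and 103 in those of mouse B and 295, 452, 374 and 440.0 in those of mouse C, were highest in mouse C. Chil3, Ccl3, Smad7 and Jun were lowest in mouse C, and Adm differed with neither extreme in mouse C. No gene of the growth factor, MHC, interferon or cell cycle lists passed. The mix of subsets moved with the mouse as well, with Inhba-only cells at 28.7% to 60.4% of Arg1/Inhba cells in the tumors of mouse A, 20.6% and 32.4% in mouse B and 8.53% to 24.7% in mouse C. Serpinb2, Tnf, Il23a and Arg2 were also among the genes higher in Inhba-only cells and Spp1 among those higher in Arg1-only cells, with tumors as samples, and the part of this mix in the differences between mice was not tested. Inhba, used by the rule, averaged 1433 CPM over the tumors of mouse A, 1234 over those of B and 645 over those of C.

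**Figure D5:**
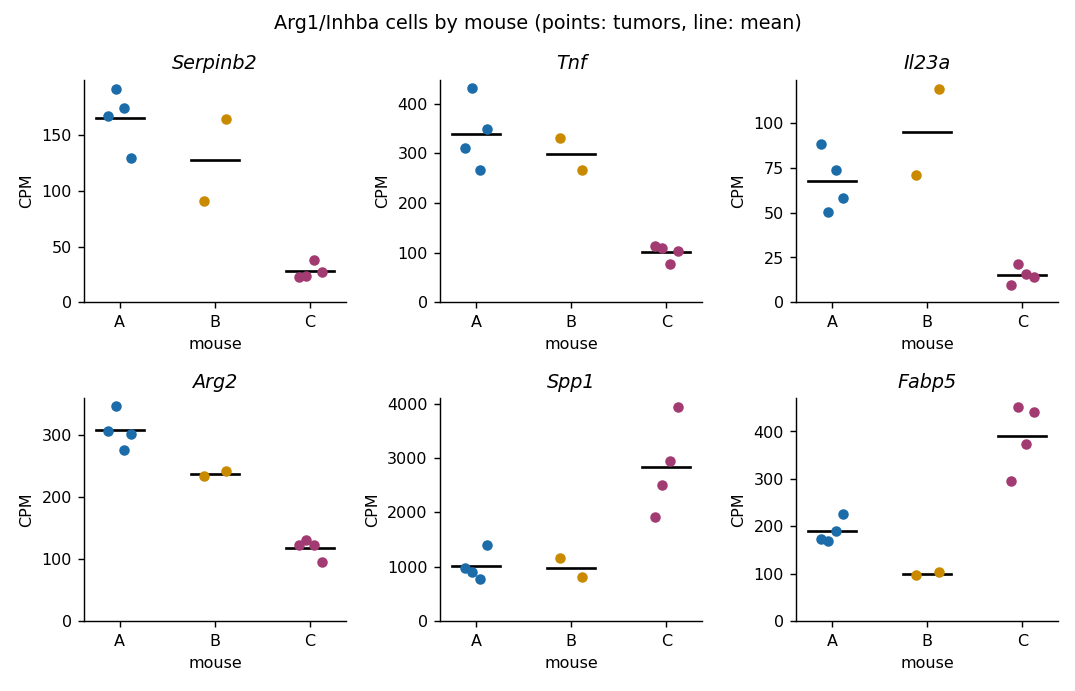
Levels of 6 genes in Arg1/Inhba cells of each tumor (vertical axes, CPM) by mouse, with lines at the mean. Serpinb2, Tnf, Il23a and Arg2 are lowest in the 4 tumors of mouse C, while Spp1 and Fabp5 are highest there.

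The rule of the C1q gate does not use Arg1 or Inhba, so their levels could be tested between mice in that gate. Arg1 averaged 1136 CPM over the tumors of mouse A, 1309 over those of B and 765 over those of C, and the difference did not pass (adjusted p = 0.161 in edgeR's F test). Inhba was at 192, 131, 115 and 83.0 CPM in the tumors of mouse A, 156 and 60.0 in those of mouse B and 98.01, 35.2, 44.0 and 56.8 in those of mouse C (adjusted p = 0.190), so mouse C had 4 values of which 3 were below every other. In this gate 3.00% of 12031 genes passed, and 6 of 17 inflammatory genes did, all lowest in mouse C, Tnf among them. The count of 361 genes rested on single tumors, from 69 without tumor 2 to 582 without tumor 3. Of 12 genes of S phase and mitosis 6 passed, all highest in mouse C (Top2a, Cdk1, Birc5, Tpx2, Mcm5 and Tyms). The tumors and mice were the same in both gates, so the gates do not repeat each other as samples.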

How the data were processed

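Cells of 10 colon tumors and 3 samples of adjacent mucosa from 3 mice were captured with 10x Genomics 3' chemistry. The deposited files hold raw UMI counts per gene and barcode, which the authors made with Cell Ranger on the mm10 genome, version 6.0.0 per the submitters' processing notes and the file headers. The paper's methods name an earlier version. No doublet removal by the authors is stated for these matrices, and marked doublets were kept here. Barcodes with 500 or more UMIs, 200 or more genes and a mitochondrial share under 25% were retained. The members and gene lists were chosen with earlier results of these data known.

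UMI counts were summed per tumor and gate, with at least 20 cells a sum, and tested with edgeR 4.0.16 in R 4.3.3 (TMM, filterByExpr, quasi-likelihood F test, tumor library as block, Benjamini-Hochberg adjusted p of 0.05), with the 3 gates in 1 fit. The 13 genes of the rule were left out of counts of calls. Levels are CPM of the sums. The standard error (SE) of a log2 fold change was taken as its absolute value over the square root of the F statistic. The block is the library itself, since gates of a tumor come from the same capture. Deviations of the gates from their means correlated within tumors from -0.005 to 0.420 between Arg1/Inhba cells and the monocyte gate, and from 0.190 to 0.560 between Arg1/Inhba cells and the C1q gate. Differences between mice were tested with a quasi-likelihood F test over tumors, and shares with an exact permutation test (Python 3.11.15). Named genes were the 10 largest log2 fold changes in each direction with adjusted p below 0.05, at least 50 CPM in the higher group and the same direction in all tumors, the 5 of lowest p between mice, and genes of the lists, of which a few are not reported here. On simulated counts the fit recovered 27.5% of 200 genes changed by 0.5 on the log2 scale, 99.5% of those changed by 1 and 100% of those changed by 2, for Arg1/Inhba cells against the monocyte gate, in fits of 9302, 9233 and 9309 genes. The simulation used 1 fixed dispersion, changed only well-counted genes and fitted this pair of gates alone. Its shares need not hold for the fits on the real counts. Alternatives were DESeq2 1.42.0, RLE normalization, no filter on low counts, doublets removed, a stricter mitochondrial limit of 10%, a depth window, a higher threshold of the rule, other blocks and samples left out.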

Additional observations from a re-analysis of the deposited data

Results flagged for a closer look

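In groups of 4 to 10 tumors, a tumor was picked out where its gap to the nearest other tumor was large for the range of the group by Dixon's test at 95%. Of 96 groups 11 were picked out, and chance alone picks about 1 in 20. Tumor 6 of mouse A stood apart most often. Its Inhba-only share of 60.4% was high among the 10 tumors, its share of cells with both genes of 30.8% was low among the 10 tumors and among those of mouse A, and its Arg1 level of 573 CPM was low among those of mouse A. In mouse C, tumor 1 had a high Inhba-only share, 24.7%, and tumor 2 a high Timp1 level, 829 CPM.

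Markers of other cell types were high in single tumors. The epithelial sum was 4648 CPM in tumor 10, the fibroblast sum 13.5 CPM in tumor 1 and the mast cell sum 369 CPM in tumor 4, the last 2 among the 10 tumors and among those of mouse C. Their part in other values of these tumors was not tested.

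Outside the tumors, 4 barcodes of mucosa 2 met the gate, while mucosa 1 and 3 held none. Of 436 comparisons of genes within mice, 3 had every tumor of mouse A on one side of 0 and every tumor of mouse C on the other. The mean log2 difference in mouse A minus that in mouse C was 1.97 for Fabp4 and -0.40 for Ctsb against the monocyte gate, and -0.38 for Gpi1 against the C1q gate. These differences between mice were not tested.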

How the results depend on the processing

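Counts of genes that passed were within 1.5 times the main count for Arg1/Inhba cells against the monocyte gate and against the C1q gate under each alternative run, with 5057 to 5193 and 7079 to 7306 when 1 tumor was left out. Without the tumor as a replicate block, 4290 and 6544 genes passed, and 1140 for Arg1-only against Inhba-only cells. That last count, 1281 in the main fit, was 2078 with no filter on low counts, 276 with the tumors of a mouse summed, 458 without mouse A and 1047 to 1267 without 1 tumor. The 157 genes that differed between mice became 531 with DESeq2, 407 with no filter, 483 in cells with no Epcam UMI, 242 with 5 or more UMIs of Arg1 and Inhba, and 3 (without tumor 4) to 254 (without tumor 9). In the C1q gate the 361 became 859 with DESeq2, 917 with no filter, 544 with doublets removed, 571 with no Epcam UMI, and 69 (without tumor 2) to 582 (without tumor 3). The p of the share between mice was 0.145 to 0.713 without 1 tumor. Among the genes named here, the log2 fold change turned sign in cells of 3000 to 12000 UMIs for Fst against the monocyte gate (-0.11) and Ccr2 against the C1q gate (-0.093), and for Mmp9 against C1q gate cells with under 3 UMIs of Arg1 and Inhba (1.05). Over all genes, those that passed in both fits with opposite signs numbered 6 against the monocyte gate, 33 against the C1q gate and 3 between the subsets in cells of 3000 to 12000 UMIs, and 12, 29 and 3 in cells with no Epcam UMI. The cause was not tested for these changes. Of values for single named genes, 23 against the monocyte gate, 2 against the C1q gate and 52 in the comparison of the subsets, over 8, 2 and 30 genes, kept their direction but no longer passed. Between mice, 3 of the 5 named genes no longer passed when 1 tumor was left out. Sums of 43 to 330 cells limit the comparison of the subsets, and 3 mice limit every comparison between mice.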

Other observations

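Dendritic cell markers, which no comparison above describes, summed to 2.45 to 51.6 CPM in Arg1/Inhba cells (median 16.6), and markers of B and plasma cells to 14.0 to 99.6 CPM (median 59.7). Among Arg1/Inhba cells 3463 had no C1q UMI and 2148 had no UMI of Vcan or F13a1.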
